A study of Homo sapiens with 28 samples.

Results

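The genes described here are the receptors and ligands of the EGFR (ERBB) family: the 4 receptors EGFR, ERBB2, ERBB3 and ERBB4 and the 6 ligands AREG, EREG, HBEGF, TGFA, BTC and NRG1. They were chosen by name, as the rows of the deposited count tables whose identifiers map to these symbols in GENCODE, and all 10 were found among 62703 genes. RNA-seq covered 24 libraries of polyA RNA from 2 human colorectal cancer (CRC) cell lines grown in DMEM with serum. MDST8, a line the study assigns to the mesenchymal CMS4 subtype, gave 3 libraries of wild-type (WT) cells and 3 of each of 5 single-cell-derived clones with CRISPR-Cas9 knockout of TWIST1, named here TG1_1, TG2_2, TG3_2, TG3_5 and TG3_6 after their library names. LoVo, a line outside that subtype, gave 3 libraries labelled shRNA control (LoVo_C1) and 3 labelled TWIST1 shRNA (LoVo_SR). TWIST1 ChIP-seq gave 1 peak list from wild-type cells of each line. The study asked which genes depend on TWIST1, an EMT transcription factor. Each clone is 1 line, and nothing in the labels says that the 3 libraries of a group came from separate cultures, so that p-values measure the spread between libraries, which may be technical.

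ERBB receptors are membrane tyrosine kinases that pair after a ligand binds and signal to the RAS-ERK and PI3K-AKT pathways. AREG and TGFA bind EGFR, while EREG, HBEGF and BTC bind EGFR and ERBB4, and NRG1 binds ERBB3 and ERBB4. ERBB2 has no known ligand of its own and serves as a partner for the others, and ERBB3 has a weak kinase and recruits PI3K. The ligands are made as membrane-anchored precursors that ADAM proteases release. In CRC, EGFR is the target of therapeutic antibodies, and AREG and EREG are widely studied as markers of the response to them.

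Total counts ran from 16567606 to 22217009 per library. TWIST1 mRNA was at 45.2 ± 5.98 CPM in MDST8 WT, at 29.1 ± 1.03 in TG2_2 and at 36.8 to 52.8 (means) in the other clones, and was thus present in every clone. The paper verified the knockout at the protein level by Western blot, and why the transcript stayed was not tested. In LoVo it had 0 counts in each LoVo_C1 library and 73, 89 and 93 in LoVo_SR. The TWIST1 counts thus run against the LoVo labels, and every LoVo direction below follows the labels. The paper also shows a Western blot of TWIST1 in its LoVo knockdown cells. LoVo_SR replicate 1 stood apart from its group: 10.89% of its counts were mitochondrial, against 6.24% and 5.47% in replicates 2 and 3. Its counts differed from theirs by a chi-square per degree of freedom of 18.6 and 28.4, against 4.17 between these 2. The mitochondrial share was 3.96%, 3.49% and 3.62% in LoVo_C1, so every LoVo_SR library lay above every LoVo_C1 library. Of 8 intestinal epithelial markers (CDX1, CDX2, VIL1, EPCAM, CDH1, KRT20, LGALS4 and CDH17), all were under 1 CPM in every MDST8 group, and all reached 1 CPM in every LoVo library. Their summed level was 1957 to 2054 CPM in LoVo_C1 and 551 to 606 CPM in LoVo_SR. The 8 mesenchymal markers (VIM, ZEB1, ZEB2, CDH2, FN1, SPARC, COL6A1 and COL6A2) summed to 12015 to 12574 CPM in MDST8 WT and 13306 to 20354 in the clones. In LoVo they summed to 354 to 370.4 CPM in LoVo_C1 and 674 to 809 in LoVo_SR. This sum does not stand for each marker. Of 6 tested in LoVo by the thresholds below, 4 were lower in LoVo_SR, among them SPARC and VIM, and 2 higher, among them COL6A2 (median log2 fold change -1.02). COL6A2 was under 1 CPM in LoVo_C1 and was tested only through its level in LoVo_SR. Of all tested genes, 26.1% were lower and 26.6% higher.

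Values below are CPM, counts scaled to library size by TMM over the 24 libraries, and levels of different genes are compared only as CPM per kb of annotated exons. A gene was tested when its geometric mean reached 1 RPM (the CPM before TMM scaling) over the libraries in a fit. It was called when the absolute log2 fold change passed 0.58 and the adjusted p-value (edgeR's quasi-likelihood test, adjusted after Benjamini and Hochberg over all genes tested) was below 0.05. Under this filter 7 members were tested in MDST8 (EGFR, ERBB2, ERBB3, EREG, HBEGF, BTC and NRG1) and 9 in LoVo, all but ERBB4. Exact permutation tests of 3 libraries against 3 cannot give a p below 0.1 and were not used for calls. In bulk RNA, fewer cells that express a gene and less RNA per cell cannot be told apart.

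The ligand genes EREG, AREG and BTC lie with EPGN, a further EGFR ligand, within 486 kb of chromosome 4 (hg38): EREG at 74365145 to 74388749 and AREG at 74445136 to 74455005 on the plus strand, and BTC at 74744759 to 74794523 on the minus strand. Their promoter windows are shown because these neighbours behaved differently in the libraries. The window of EGFR is shown because a peak of the TWIST1 ChIP-seq in LoVo overlapped it by 215 bases. Each window runs from 250 bases before to 50 after the RefSeq start site (GRCh38.p14), 5′ to 3′ on the strand of the gene. Capitals mark every CANNTG, the E-box to which TWIST1 and other basic helix-loop-helix factors bind.
EREG, chr4:74364895-74365194, plus strand: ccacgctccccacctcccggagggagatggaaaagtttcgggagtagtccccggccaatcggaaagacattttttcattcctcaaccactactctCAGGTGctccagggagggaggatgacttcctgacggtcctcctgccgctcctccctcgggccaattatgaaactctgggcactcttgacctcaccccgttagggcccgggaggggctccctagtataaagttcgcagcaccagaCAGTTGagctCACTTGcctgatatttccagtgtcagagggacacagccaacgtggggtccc
AREG, chr4:74444886-74445185, plus strand: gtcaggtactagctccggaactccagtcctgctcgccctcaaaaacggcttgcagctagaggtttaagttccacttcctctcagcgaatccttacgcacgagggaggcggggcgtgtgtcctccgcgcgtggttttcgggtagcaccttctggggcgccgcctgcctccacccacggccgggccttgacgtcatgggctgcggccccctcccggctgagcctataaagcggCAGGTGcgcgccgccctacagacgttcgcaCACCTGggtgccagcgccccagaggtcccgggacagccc
BTC, chr4:74794474-74794773, minus strand: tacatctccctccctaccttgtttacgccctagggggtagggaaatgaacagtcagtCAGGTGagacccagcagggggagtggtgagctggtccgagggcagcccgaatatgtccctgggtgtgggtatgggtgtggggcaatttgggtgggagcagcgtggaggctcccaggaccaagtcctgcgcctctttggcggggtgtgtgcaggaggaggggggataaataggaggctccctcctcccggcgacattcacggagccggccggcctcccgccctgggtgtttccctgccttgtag
EGFR, chr7:55018767-55019066, plus strand: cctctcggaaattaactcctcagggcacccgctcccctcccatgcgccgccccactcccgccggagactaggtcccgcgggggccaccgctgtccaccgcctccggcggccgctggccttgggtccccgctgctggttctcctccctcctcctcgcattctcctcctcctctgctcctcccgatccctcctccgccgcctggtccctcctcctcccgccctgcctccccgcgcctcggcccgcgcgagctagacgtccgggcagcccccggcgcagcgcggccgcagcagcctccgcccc
The EREG window holds 3 E-boxes, that of AREG 2, that of BTC 1 and the printed EGFR window 0. The second RefSeq window of EGFR (chr7:55109589-55109888, plus strand), not printed, holds 2.

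Across the 8 groups, the lines differed in which receptor and which ligand transcripts they carried. On the scale of CPM per kb, EGFR made up 66.4% ± 0.719 (SD, n = 3) of the receptor transcripts in MDST8 WT, ERBB2 33.1% ± 0.856 and ERBB3 0.488% ± 0.108. In LoVo_C1, ERBB3 was the largest share at 52.7% ± 0.589 (SD, n = 3), followed by ERBB2 at 25% ± 0.897 and EGFR at 22.3% ± 0.314. Thus EGFR led the receptors in MDST8 WT, and ERBB3 in LoVo_C1. In the libraries labelled TWIST1 shRNA, EGFR led with 52.4% ± 1.75 (SD, n = 3), and ERBB3 held 17.8% ± 0.939. In the 5 clones the mean share of EGFR ran from 57.9% in TG2_2 to 65.9% in TG3_2.

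Among the ligands, NRG1 held the largest share of CPM per kb in MDST8 WT with 47.4% ± 1.78 (SD, n = 3), followed by EREG with 26.6% ± 1.35 and HBEGF with 21.6% ± 0.795. The exons of NRG1 sum to 21389 bp over its many annotated transcripts, so that its level per kb is lower than for any single transcript of it. The lengths of the other genes are such sums too, 1642 bp for AREG and 5713 bp for EREG. All receptor and ligand shares depend on these lengths. In LoVo_C1 the ligands were AREG with 55.9% ± 1.97 (SD, n = 3) and EREG with 32.5% ± 1.36, and NRG1 held 0.0195%. The sum of the 6 ligands was 26.6 ± 0.732 CPM per kb in MDST8 WT and 256.5 ± 14.8 in LoVo_C1 (SD, n = 3 each). HBEGF had a larger mean share than EREG in TG1_1, TG2_2, TG3_2, TG3_5 and TG3_6, the narrowest gap being 22.8% against 22.7% in TG2_2. In TG3_6, HBEGF with 36.4% ± 1.15 (SD, n = 3) stood above NRG1 with 28.5% ± 0.629.

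**Figure D1:**
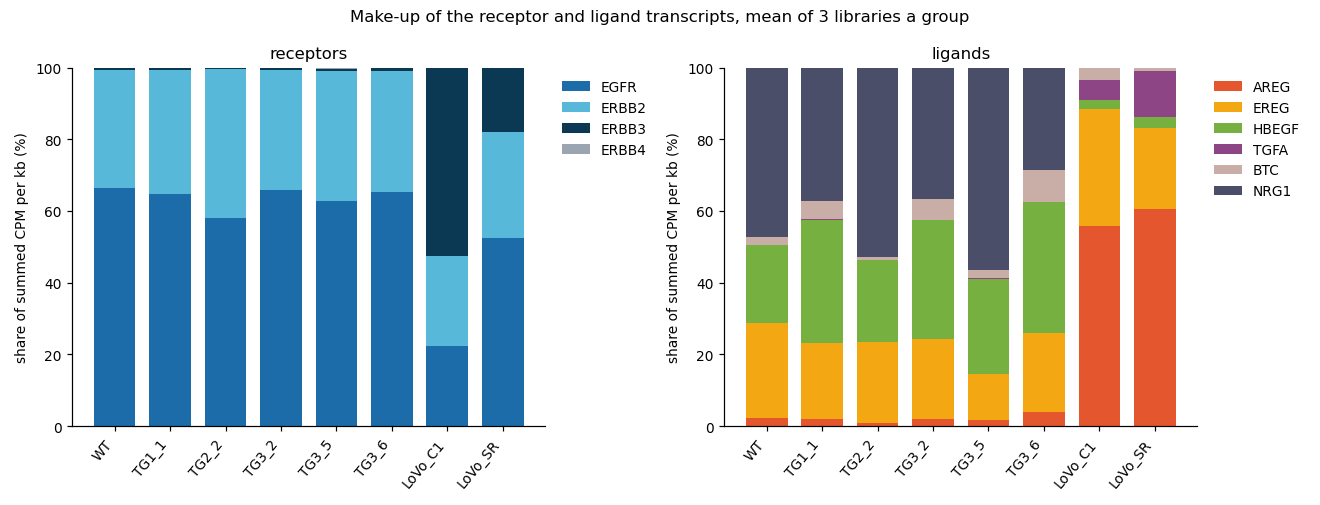
Share of each gene in the summed CPM per kb (%) of the 4 receptors (left) and the 6 ligands (right), as stacked bars of the mean of 3 libraries in each of the 8 groups. MDST8 groups carried EGFR and ERBB2 and mainly NRG1, HBEGF and EREG, while LoVo_C1 carried ERBB3 at 52.7% of the receptors and AREG at 55.9% of the ligands.

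In the TWIST1 knockout clones, the changes past the threshold were mostly in 3 ligands, EREG, NRG1 and BTC. EREG fell in 4 of the 5 clones, NRG1 fell in 3, and BTC rose in 2 and fell in TG2_2. Of the receptors, ERBB3 rose in TG3_6. The 5 comparisons share the 3 WT libraries.

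NRG1, a ligand of ERBB3 and ERBB4 on chromosome 8 (31639222 to 32855666, plus strand), was at 277, 261 and 269 CPM in WT replicates A, B and C. It was at 139, 133 and 134 CPM in TG1_1, at 140, 137 and 132 in TG3_2 and at 92.5, 90.3 and 92.6 in TG3_6. The values of these 3 clones lay far below WT, and no library of them overlapped it. The log2 fold change was -1.0 (SE 0.04, adjusted p = 4.16e-22, edgeR) in TG1_1, -0.99 (SE 0.04, adjusted p = 6.8e-22) in TG3_2 and -1.55 (SE 0.04, adjusted p = 2.17e-27) in TG3_6. TG3_5, with 263, 242 and 240 CPM, overlapped WT at -0.13 (SE 0.04, adjusted p = 0.00241), and TG2_2, with 317, 316 and 311 CPM, lay above WT at 0.21 (SE 0.04, adjusted p = 4.39e-06), both short of the fold threshold. The 3 clones whose labels begin with TG3 thus lay at different levels of NRG1.

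EREG, which encodes epiregulin, was at 40.9, 43 and 37.2 CPM in WT. TG3_5 had the lowest values, 14, 16.1 and 14.2 CPM, with a log2 fold change of -1.46 (SE 0.08, adjusted p = 2.26e-17). The other clones in which EREG fell were TG3_6 at 18.7, 20.3 and 18.3 CPM, TG1_1 at 19.9, 22.2 and 20.1 CPM and TG3_2 at 25.2, 22 and 19.8 CPM. In these clones every library was under every WT library. Their log2 fold changes were -1.09 (SE 0.07, adjusted p = 5.94e-15), -0.96 (SE 0.07, adjusted p = 2.22e-13) and -0.87 (SE 0.07, adjusted p = 2.88e-12). TG2_2, at 37.3, 35.6 and 35.2 CPM, reached into the range of WT, with -0.18 (SE 0.07, adjusted p = 0.0315).

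BTC, betacellulin, was a low transcript in MDST8, with 26, 26 and 39 counts in WT, or 1.36, 1.3 and 1.95 CPM. It rose in TG3_6, with 74, 84 and 75 counts, by a log2 fold change of 1.23 (SE 0.24, adjusted p = 2.73e-05), and in TG3_2, with 44, 61 and 65 counts, by 0.82 (SE 0.25, adjusted p = 0.00475). In TG2_2 it fell to 6, 15 and 6 counts, a log2 fold change of -1.76 (SE 0.34, adjusted p = 4.56e-05). None of these 3 clones overlapped WT in CPM, and the directions were opposite. TG1_1 lay at the threshold, with 48, 54 and 36 counts and 0.57 (SE 0.26, adjusted p = 0.0495). Without WT replicate C, the highest of the WT libraries, its value was 0.79 and was called, and without TG1_1 replicate C it was 0.70 and was called too. TG3_5 held 21, 32 and 16 counts, with -0.33 (SE 0.29, adjusted p = 0.32).

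HBEGF, the heparin-binding ligand (chromosome 5, 140332843 to 140346603, minus strand), kept to a narrow range in MDST8, from 14.7 to 19.8 CPM over the 18 libraries. The largest difference from WT was 0.13 (95% interval -0.04 to 0.30, adjusted p = 0.181) in TG2_2. The other 2 ligands were too low to be tested in this line. AREG, amphiregulin, had 4 to 31 counts per library, with 25, 20 and 12 in WT. TGFA, which encodes TGF-alpha (chromosome 2, 70447284 to 70554193, minus strand), had 0 to 2 counts in each MDST8 library, which is under the floor of 3 counts. A fall of TGFA, or a rise that stays under that floor, was not detectable at this depth.

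Of the receptors, EGFR (chromosome 7, 55019017 to 55211628, plus strand) was at 289, 304 and 306 CPM in WT and was not called in any clone. Its lowest values were in TG2_2, at 221, 209 and 208 CPM, all under WT, with a log2 fold change of -0.51 (SE 0.04, adjusted p = 2.84e-13) that stayed short of 0.58. In the remaining clones its log2 fold change ran from -0.19 in TG1_1 to 0.15 in TG3_2. ERBB2 (chromosome 17, 39687914 to 39730426, plus strand), the receptor that lacks a ligand, was at 95.4, 100.2 and 94.8 CPM in WT, and its differences lay between -0.08 in TG1_1 and 0.19 in TG3_5. It shares 571 bp of exon, 5.53% of its exons, with MIEN1 on the opposite strand, and counting did not use the strand.

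ERBB3 (chromosome 12, 56076799 to 56103505, plus strand), the receptor for NRG1 with a weak kinase, had only 27, 28 and 41 counts in WT, or 1.41, 1.40 and 2.05 CPM. It rose in TG3_6, with 61, 61 and 83 counts, by 0.97 (SE 0.24, adjusted p = 0.000714). TG3_2 and TG3_5 had log2 fold changes of 0.48 (SE 0.26, adjusted p = 0.1) and 0.50 (SE 0.26, adjusted p = 0.0919), which were called without WT replicate C, at 0.71 and 0.72, and in TG3_5 also without its replicate C, at 0.68. ERBB4, the other neuregulin receptor (chromosome 2, 211375717 to 212538841, minus strand), did not pass the filter. Its counts were 2, 2 and 6 in WT and 30, 24 and 20 in TG3_5, which stood above every other group. They were 8, 4 and 8 in TG3_2, at most 4 in TG2_2 and TG3_6, and 0 in all 3 TG1_1 libraries, which allows up to 3 counts in each. With no filter, ERBB4 was called higher in TG3_5, with 2.90 (adjusted p = 2.08e-06, edgeR), and lower in TG1_1 (adjusted p = 0.0034, edgeR), where no fold is given against libraries at 0.

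Counted over members, TG1_1 had 0 of 7 higher and 2 lower, beside 12% of all tested genes called higher and 7.49% called lower. TG2_2 had 0 higher and 1 lower, beside 8.05% and 6.64%, and TG3_2 had 1 higher and 2 lower, beside 10.9% and 6.09%. TG3_5 had 0 higher and 1 lower, beside 11.2% and 7.25%, and TG3_6 had 2 higher and 2 lower, beside 15.3% and 11.7%. The family as a whole was not tested. Without any normalization (limma on log2 counts), the genes called in TG3_2 split into 1763 higher and 611 lower in place of 1491 and 835, and those in TG3_6 into 2687 and 1098 in place of 2099 and 1605, and every member called in these clones kept its call.

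**Figure D2:**
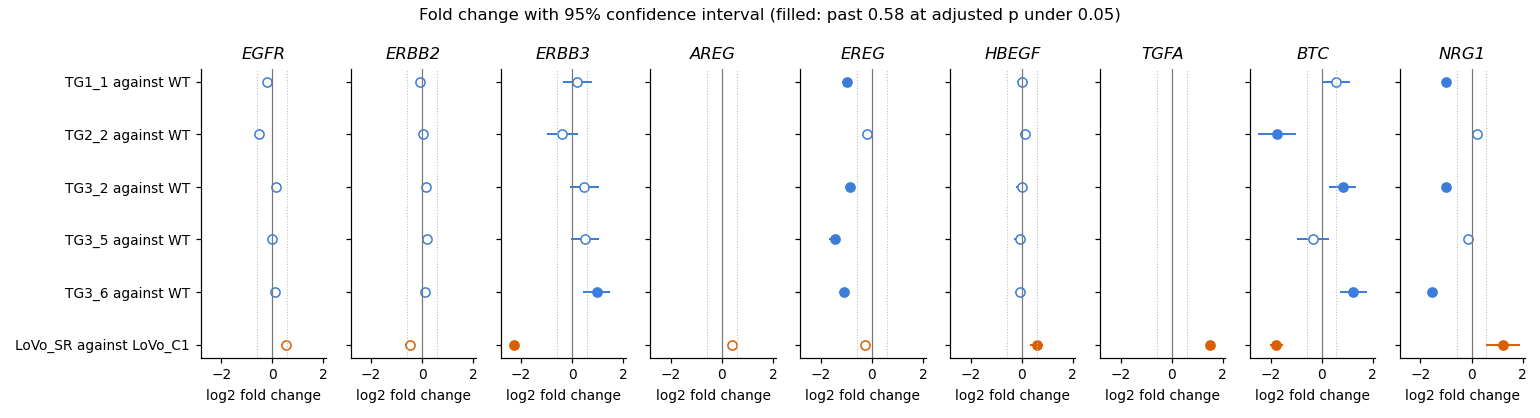
Log2 fold change (x axis) of each tested member in the 5 clones against WT (blue) and in LoVo_SR against LoVo_C1 (orange), with 95% confidence intervals from edgeR as bars, filled where called, and dotted lines at -0.58 and 0.58. EREG and NRG1 lie to the left in TG1_1, TG3_2 and TG3_6, and in LoVo ERBB3 lies at -2.28 and TGFA at 1.5, while AREG and TGFA have no point in MDST8.

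The clones were also compared with each other, without WT, by an F test in the same fit. Of the 7 members tested, 6 differed among the 5 clones, beside 81.0% of all genes at an adjusted p below 0.05. The adjusted p-values were 2.46e-29 for NRG1, 3.38e-16 for EGFR, 4.2e-15 for EREG, 4.85e-10 for BTC, 2.74e-06 for ERBB2 and 0.000378 for ERBB3, and 0.121 for HBEGF. In the order of the 8 groups, the means of NRG1 fell from 315 CPM in TG2_2 through 269 in WT and 248 in TG3_5 to 136 in TG3_2, 135 in TG1_1 and 91.8 in TG3_6, and then to 2.45 in LoVo_SR and 1.06 in LoVo_C1. Neighbours that overlapped in this order were WT with TG3_5 and TG3_2 with TG1_1. For EREG the order was 476 CPM in LoVo_C1, 396 in LoVo_SR, 40.4 in WT, 36.0 in TG2_2, 22.3 in TG3_2, 20.8 in TG1_1, 19.1 in TG3_6 and 14.8 in TG3_5. Here WT overlapped TG2_2, TG3_2 overlapped TG1_1 and TG1_1 overlapped TG3_6.

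**Figure D3:**
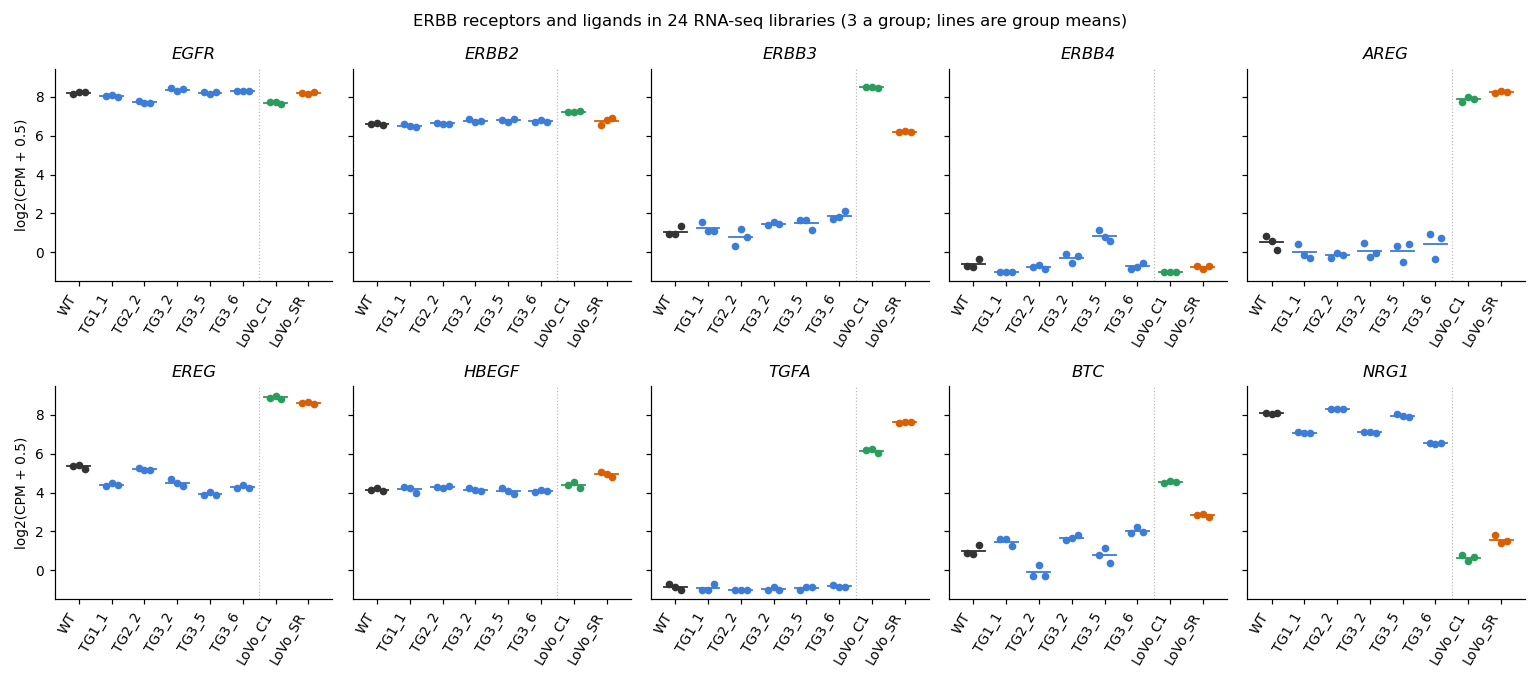
Level of each member as log2(CPM + 0.5) (y axis) in the 24 libraries, with points for libraries, short lines for group means, and a dotted line between the MDST8 groups and the LoVo groups. Group means ran from 207 to 334 CPM for EGFR, from 91.9 to 150 for ERBB2 and from 16.4 to 30.3 for HBEGF. NRG1 was higher in MDST8, and ERBB3, AREG, EREG, TGFA and BTC were higher in LoVo.

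In LoVo, 5 of the 9 members tested were called between the libraries labelled TWIST1 shRNA and those labelled shRNA control: TGFA, NRG1 and HBEGF higher, and ERBB3 and BTC lower. These are 3 higher and 2 lower, beside 26.6% of all tested genes called higher and 26.1% called lower. Over the LoVo_C1 libraries alone, NRG1 would not reach the filter. It was tested through its level in LoVo_SR, so that its call adds no weight to this count. ERBB3 was at 366, 365 and 347 CPM in LoVo_C1 and at 72.2, 75.4 and 71.9 CPM in LoVo_SR. The 2 groups lay far apart, with a log2 fold change of -2.28 (SE 0.06, adjusted p = 2.66e-15, edgeR). EGFR moved the other way, from 210, 211 and 199 CPM to 290, 287 and 303 CPM, with no overlap, at 0.52 (SE 0.06, adjusted p = 2.44e-07), short of the fold threshold. ERBB2 was at 149.5, 148 and 153 CPM in LoVo_C1 and at 93.5, 112 and 119 CPM in LoVo_SR, with -0.46 (SE 0.07, adjusted p = 2.89e-05), and the lowest value was that of LoVo_SR replicate 1. ERBB4 had 0 counts in LoVo_C1 and 1 to 2 in LoVo_SR.

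Of the ligands, TGFA rose from 71.9, 73.9 and 64.6 CPM in LoVo_C1 to 192, 198 and 198 CPM in LoVo_SR, a log2 fold change of 1.5 (SE 0.06, adjusted p = 1.54e-12). BTC fell from 22, 23.4 and 22.8 CPM to 6.67, 6.87 and 6.25 CPM, by -1.77 (SE 0.11, adjusted p = 1.97e-10). Both groups were tight and did not overlap in either gene. NRG1, with 19, 17 and 19 counts in LoVo_C1 and 55, 35 and 40 in LoVo_SR, rose by 1.23 (SE 0.29, adjusted p = 0.00109) at a level that was a small part of that in MDST8. HBEGF rose from 20.2, 22.8 and 18 CPM to 32.5, 30.7 and 27.7 CPM, by 0.59 (SE 0.10, adjusted p = 4.57e-05), just past the threshold. Its call was lost without LoVo_SR replicate 1, at 0.55, without LoVo_C1 replicate C, at 0.51, and with no filter, at 0.54.

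AREG and EREG, the most abundant ligand transcripts of LoVo, were not called. AREG was at 215, 252 and 240.0 CPM in LoVo_C1 and at 299, 319 and 307 CPM in LoVo_SR, with 0.41 (SE 0.06, adjusted p = 1.69e-05), and EREG was at 473, 499 and 456 CPM against 397, 412 and 380.1 CPM, with -0.25 (SE 0.06, adjusted p = 0.00106). These neighbours on chromosome 4 thus had log2 fold changes of opposite sign, and BTC in the same locus fell. Without LoVo_SR replicate 1 the log2 fold changes were -2.26 for ERBB3, 1.53 for TGFA, -1.77 for BTC and 1.08 for NRG1, all still called. Of the 8 intestinal epithelial markers, 7 fell in LoVo_SR (median log2 fold change -3.15), and of 6 mesenchymal markers tested, 2 rose and 4 fell. The part of this difference between the groups in the values of the members was not tested.

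The 2 lines were set side by side in their control groups, on a single scale over the 24 libraries. LoVo_C1 had 6 members higher and 1 lower than MDST8 WT, beside 30.6% of all tested genes called higher and 34.0% called lower. The 6 include AREG and TGFA, which were tested only because they are high in LoVo, so that their calls add no weight to this count. Cell line, shRNA vector and any difference in preparation cannot be told apart here. ERBB3 was at 359 ± 10.6 CPM in LoVo_C1 and 1.62 ± 0.372 in WT (SD, n = 3 each), a log2 fold change of 7.79 (SE 0.11, adjusted p = 2.08e-35). AREG was at 236 ± 19.2 and 0.969 ± 0.355 CPM, with 7.93 (SE 0.14), and EREG at 476 ± 21.9 and 40.4 ± 2.92 CPM, with 3.57 (SE 0.06, adjusted p = 7.64e-33). AREG and TGFA passed the filter through LoVo alone. TGFA had 3668 counts over the LoVo_C1 libraries and 3 over the WT libraries, a ratio of 1385 after scaling, with a 95% exact interval from 473 to 6717 that covers counting error only.

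BTC was higher in LoVo_C1 by 3.89 (SE 0.18, adjusted p = 3.5e-20), and ERBB2 by 0.64 (SE 0.06, adjusted p = 1.43e-12). NRG1 was the member that was lower, at 1.06 ± 0.161 CPM against 269 ± 8.04 (SD, n = 3 each), a log2 fold change of -7.98 (SE 0.08, adjusted p = 2.43e-38). NRG1 and its receptor ERBB3 thus lay at opposite ends in the 2 lines. EGFR, at -0.52 (SE 0.04, adjusted p = 2e-13), and HBEGF, at 0.25 (SE 0.09, adjusted p = 0.0112), were not called. With limma on log2 counts, which applies no normalization and moves the median of all genes by -0.19, EGFR was called at -0.72 and ERBB2 was not, at 0.45.

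The effect in LoVo, as labelled, was also compared with the mean effect of the 5 clones, a contrast chosen after the data were seen. That mean joins unlike effects: BTC ran from -1.76 in TG2_2 to 1.23 in TG3_6, and NRG1 from -1.55 in TG3_6 to 0.21 in TG2_2. The SE and p-values of the contrast cover the spread between libraries and leave out that between clones. Over all tested genes 50.7% were called in either direction. Among the members that could be tested in both lines, ERBB3 differed by -2.66 (SE 0.17, adjusted p = 6.53e-16), since it fell in LoVo_SR and had a mean of 0.36 in the clones. NRG1 differed by 1.91 (SE 0.19, adjusted p = 7.73e-11) and BTC by -1.90 (SE 0.24, adjusted p = 1.27e-08). EREG differed by 0.64 (SE 0.07, adjusted p = 1.45e-09) and EGFR by 0.59 (SE 0.05, adjusted p = 6.23e-12). HBEGF, at 0.57 (SE 0.11, adjusted p = 3.79e-05), and ERBB2, at -0.57 (SE 0.07, adjusted p = 1.16e-08), stayed short of the fold threshold. Because the TWIST1 counts run against the LoVo labels, the contrast was also taken with the LoVo direction turned, when 50.1% of all genes were called. NRG1, at -0.54 (SE 0.20, adjusted p = 0.0232), and EGFR, at -0.42 (SE 0.05, adjusted p = 2.14e-08), then fell short of the fold threshold, while HBEGF, at -0.58 (SE 0.11, adjusted p = 2.72e-05), just passed it. The values of ERBB3, BTC and EREG were 1.93 (SE 0.21, adjusted p = 8.3e-10), 1.67 (SE 0.25, adjusted p = 3.98e-07) and 1.17 (SE 0.07, adjusted p = 5.6e-16).

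The remaining ligands and the genes that act beside the receptors were followed in lists. Of EGF, EPGN, NRG2, NRG3 and NRG4, the genes EGF and NRG2 could be tested in MDST8. EGF, the founding EGFR ligand, was at 5.5, 6.5 and 5 CPM in WT and at 11.8, 10.2 and 9.53 CPM in TG2_2, where it rose by 0.88 (SE 0.14, adjusted p = 3.4e-06). It fell in TG3_2, TG3_5 and TG3_6, most in TG3_6 with -1.76 (SE 0.18, adjusted p = 2.31e-10). NRG2, a neuregulin, rose in TG1_1, TG3_2, TG3_5 and TG3_6, from 28, 36 and 44 counts in WT to 172, 178 and 129 in TG3_6, at 2.02 (SE 0.19, adjusted p = 1.47e-11). In TG3_5, NRG1 was not called. Neither gene passed the filter in LoVo, and EPGN had at most 8 counts in any library.

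Of 6 genes for ligand shedding, RHBDF2, which encodes the iRhom protein that guides ADAM17, rose in all 5 clones, from 0.62 (SE 0.04, adjusted p = 6.67e-14) in TG2_2 to 1.48 (SE 0.04, adjusted p = 2.13e-25) in TG3_6. The share of all genes that rose in all 5 clones was not counted. In TG3_6, RHBDF1 also rose, by 0.68 (SE 0.05, adjusted p = 2.92e-13), and the protease gene ADAM12 fell, by -1.06 (SE 0.08, adjusted p = 1.62e-13). ADAM12 was also called lower in TG3_5, at -0.58 (SE 0.08, adjusted p = 1.14e-07), which only just passed the threshold. In LoVo_SR, ADAM17, the main sheddase of EGFR ligands, rose by 1.25 (SE 0.06, adjusted p = 9.63e-12), ADAM9 rose by 0.73, and RHBDF1 fell by 1.96 on the log2 scale. Of 19 adaptor and signalling genes, 0 were called in TG1_1, TG2_2, TG3_2 and TG3_5 (median log2 fold change -0.03 to 0.03). In TG3_6 MAP2K2, which encodes the kinase MEK2, fell by 0.64. Beside the calls of both lists in the clones stand 8.05 to 15.3% of all tested genes called higher and 6.09 to 11.7% called lower. In LoVo_SR, 3 of the 19 rose, among them SHC1 at 1.52 and PIK3R1 at 1.42, and 4 fell, with GAB1 at -1.98, beside the 26.6% of all genes that rose and 26.1% that fell.

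Of 14 genes that restrain or turn over the receptors, 12 were tested in MDST8, and each clone had at most 2 called. Beside these stand 8.05 to 15.3% of all tested genes called higher and 6.09 to 11.7% called lower in the clones. LRIG1, a membrane protein that lowers ERBB receptor levels, rose in TG3_2 by 1.04 (SE 0.15, adjusted p = 2.2e-07) and fell in TG2_2 by -0.92 (SE 0.18, adjusted p = 4.85e-05). In LoVo_SR, 4 of 14 rose and 7 fell (median -0.29), beside 26.6% and 26.1% of all genes. ERRFI1, an inhibitor of the EGFR kinase, rose by 3.34 (SE 0.06, adjusted p = 9.04e-17), and RNF41, a ubiquitin ligase known for its action on ERBB3, fell by -1.31 (SE 0.07, adjusted p = 3.95e-11). Of 16 genes that respond to ERK or feed back on it, 15 were tested in MDST8. The number that rose was 5 in TG1_1, 1 in TG2_2, 3 in TG3_2, 3 in TG3_5 and 8 in TG3_6, and 0 fell in any clone, with medians from 0.22 in TG2_2 to 0.65 in TG3_6. Of all genes, 12%, 8.05%, 10.9%, 11.2% and 15.3% rose in these clones in that order, and 6.09 to 11.7% fell. DUSP6, an ERK phosphatase, rose in every clone, from 0.64 in TG2_2 to 1.32 in TG3_6, and EGR1, an immediate early gene, reached 2.83 (SE 0.23, adjusted p = 3.41e-13) in TG3_6. In LoVo_SR, 11 of 16 rose and 3 fell, beside the 26.6% and 26.1% of all genes, with EGR1 at 4.47 (SE 0.10, adjusted p = 2.94e-16) and FOS at 3.76. These medians stand beside a median of all genes between -0.01 and 0.01.

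TWIST1 ChIP-seq peaks were looked for within 3000 bp of the 5′ end of each member. The lists are permissive, since peaks were kept at an uncorrected p below 0.05, and each comes from 1 library. TWIST1 mRNA had 0 counts in each LoVo_C1 library and 73, 89 and 93 in LoVo_SR. Whether the LoVo peaks mark binding of TWIST1 was not tested. In MDST8, 8 of 10 members had a peak, all but AREG and EREG, beside 63.1% of all annotated genes and 76.4% of the genes tested over all 24 libraries. In LoVo, 4 members had a peak (EGFR, ERBB4, EREG and HBEGF), beside 55.7% and 57.9%. The counts of members are near the shares of genes at large. None of these 16 peaks had a q-value below 0.05, the lowest being 0.279, and within 1000 bp the counts were 5 members in MDST8 and 1 in LoVo, beside 37.1% and 28.5% of all annotated genes and 53.0% and 32.3% of the genes tested. EREG and NRG1, the ligands that fell in the clones, had 0 and 1 peak in MDST8, the latter 2773 to 3049 bp downstream of the 5′ end.

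The peak with the lowest p-value lay at TGFA in MDST8, from 242 bp upstream to the 5′ end (chr2:70554192-70554435, hg38), with a fold enrichment of 3.45 (q = 0.279). TGFA held 0 to 2 counts in that line. At HBEGF a peak reaching 1589 bp upstream (chr5:140347138-140348192) had a fold enrichment of 2.82 (q = 0.653). In LoVo the lowest p-value was at EGFR, for a peak that spans the 5′ end (chr7:55018852-55019262) with a fold enrichment of 2.69 (q = 0.751), over the window printed above. At BTC, an MDST8 peak (chr4:74794643-74794869) overlapped the printed window by 131 bases, with a fold enrichment of 1.98 (q = 1.0).

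**Figure D4:**
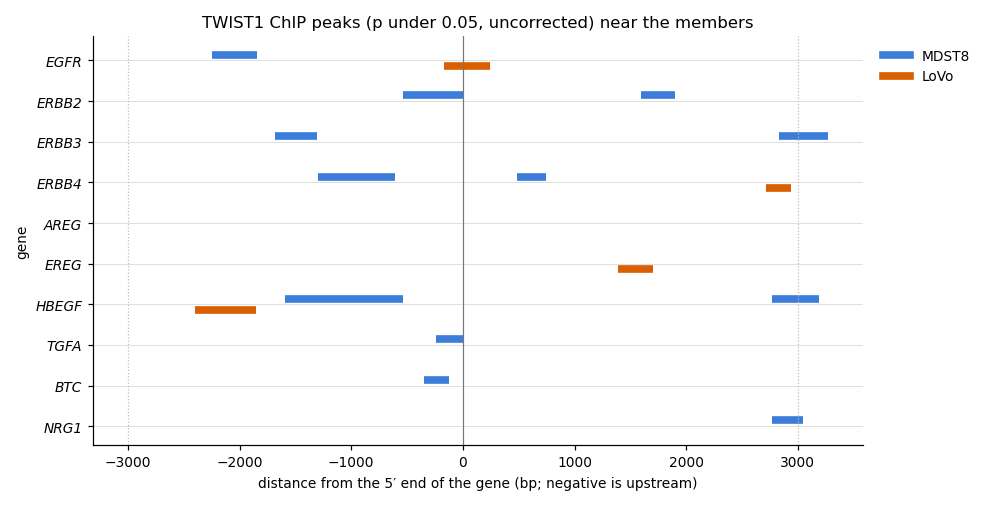
Peaks of TWIST1 ChIP-seq within 3000 bp (dotted lines) of the 5′ end of each member, as bars by distance in bp (x axis, negative upstream), in MDST8 (blue) and LoVo (orange). MDST8 peaks lie near 8 members and LoVo peaks near 4, with no peak near AREG in either list.

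RefSeq promoter windows were used for 8 members, with a pair of windows each for EGFR and TGFA, 10 in all. None was matched for ERBB3. Windows on chromosome 8, where NRG1 lies, were left out, so NRG1 has no part in the counts below. A CANNTG on either strand was found in 7 of these windows, beside 68.7% of 35116 windows of the same length. CAGGTG (read as CACCTG on the other strand), which is contained in CANNTG, was found in 5 windows, those of AREG, EREG, HBEGF and BTC and 1 of the 2 of TGFA, beside 20.6% of all windows. In the AREG window both matches are of this kind. CATCTG (or CAGATG) was found in 0 of the 10, beside 14.7%. A match of letters describes the window alone.

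The genes whose levels followed each member most closely over the 18 MDST8 libraries are given as a description, since the libraries fall into 6 groups of 3. Pearson's r of log2 CPM with NRG1 was 0.987 for PEBP1, 0.984 for GDAP1 and 0.979 for PES1. With EREG it was 0.968 for CDC6, 0.963 for HMGCS1 and 0.959 for MSH6, and with BTC 0.962 for FBXO3, 0.947 for CYP2U1 and 0.943 for RAPGEF2. For EGFR the closest genes were MAFK at 0.952, CHST12 at 0.950 and SEPTIN7 at 0.949. For the other members the values were lower: ERBB2 with SDCCAG8 at 0.875, CKB at 0.839 and OSBPL3 at 0.804, ERBB3 with PDE5A at 0.860 and PUS10 at 0.837, and HBEGF with SPRTN at 0.818, SLC2A8 at 0.785 and ZNF155 at 0.723.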

How the data were processed

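RNA-seq was read from 24 libraries in 8 groups of 3, grouped by the labels. According to the paper's methods and the processing notes, the authors trimmed reads with Trim Galore 0.6.6, aligned them to hg38 with HISAT2 2.1.0 and SAMtools 1.6 and counted fragments on GENCODE v43 genes with featureCounts 2.0.0. They deposited raw counts per gene without normalization, with the exon length of each gene, another deposited value, in bp. The header of the tables shows no setting for strand, although the libraries were directional. Reads that map to several genes were not counted. For each TWIST1 peak the authors deposited, from MACS2 2.2.7.1 after Bowtie2 2.4.5, a fold enrichment (a ratio) and a p-value and q-value as -log10, at p below 0.05; whether the input served as control is not given in the sources used here. Peaks were read as hg38, the build named in the notes.

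Genes were kept where the geometric mean of RPM + 1, minus 1, reached 1, so that 13706 genes were tested in MDST8, 14270 in LoVo and 14185 over all libraries. Counts were compared with edgeR 4.0.16 (R 4.3.3; TMM, quasi-likelihood test, Benjamini-Hochberg) in 3 fits, of the 18 MDST8, the 6 LoVo and all 24 libraries. Calls used the study's thresholds: adjusted p below 0.05, and a log2 fold change past 0.58 in either direction. Standard errors are the log2 fold change over the root of F. Levels are CPM with TMM factors, and figures use a pseudocount of 0.5. The study used limma on log2 counts, here an alternative (limma 3.58.1, log2(count + 1)). The others were DESeq2 1.42.0, RLE factors, no filter, fits restricted to both groups of a comparison, a replicate block, and omission of each library in turn. For peaks they were windows of 1000 and 5000 bp, p at most 0.001 and q at most 0.05. The fits were tested on simulated data. The genes named beside the members are TWIST1, up to 3 called genes of each list with the largest fold change per comparison, and the 3 genes with the highest Pearson r to each member over the 18 MDST8 libraries, of which 1 is not reported here. The members and lists were chosen with earlier results of these data known. Depth was 16567606 to 22217009 counts per library, and floors of 3 counts and intervals cover counting error only. The input libraries were not used here.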

Additional observations from a re-analysis of the deposited data

Results flagged for a closer look

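The effect against WT differed among the 5 clones for 6 members by the F test over the clones (edgeR, adjusted over 13706 genes, of which 81.0% passed): NRG1 (adjusted p = 2.46e-29), EGFR (3.38e-16), EREG (4.2e-15), BTC (4.85e-10), ERBB2 (2.74e-06) and ERBB3 (0.000378). For EGFR and ERBB2 no clone passed the fold threshold against WT, and the range of the clones was 213 to 334 CPM and 91.9 to 111 CPM (means).

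The effect in LoVo, by the labels that the TWIST1 counts run against, differed from the mean effect of the clones by a contrast in the fit of all 24 libraries for 5 members: ERBB3 at -2.66, NRG1 at 1.91, BTC at -1.90, EREG at 0.64 and EGFR at 0.59 on the log2 scale. Of all genes tested, 50.7% passed this test, which measures spread between libraries and leaves out that between clones. With the LoVo direction turned, 50.1% passed, and the values were 1.93 for ERBB3, 1.67 for BTC and 1.17 for EREG, with NRG1 at -0.54 and EGFR at -0.42 short of the fold threshold and HBEGF past it at -0.58. Groups held 3 libraries each, so no library was tested as an outlier within its group.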

How the results depend on the processing

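Over the alternatives tried, the values of single members kept their direction and their side of the threshold in 593 of 618 cases, 7 became called, 4 lost the call and 14 changed sign, all of the last in values near 0. EREG in TG1_1, TG3_2, TG3_5 and TG3_6, NRG1 in TG1_1, TG3_2 and TG3_6, BTC in TG2_2, TG3_2 and TG3_6 and ERBB3 in TG3_6 were called under each of the alternatives that gave a value. With no filter, the number of members called was 3 in TG1_1 (ERBB4 added, lower, adjusted p = 0.0034), 2 in TG2_2 (AREG added at -1.26) and 2 in TG3_5 (ERBB4 added). Leaving out 1 library gave 1 to 2 members in TG3_5: ERBB3 was added without WT replicate C or without TG3_5 replicate C. HBEGF changed sign in TG3_2 (0.00 with RLE factors, no filter, DESeq2 or only the groups compared, 0.07 with limma, -0.04 to 0.05 without 1 library), in TG1_1 (-0.03 to 0.11 without 1 library) and in TG3_6 (0.06 with limma), as did EGFR in TG3_5 (-0.04 to 0.02 without 1 library). Limma without normalization moved the median of all genes by 0.13 in TG3_6 and -0.19 between the lines. For LoVo_SR, the fit of only the groups compared is the main one.

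Members with a promoter peak numbered 5 in MDST8 and 1 in LoVo within 1000 bp (53.0% and 32.3% of the genes tested), 2 and 1 at p of at most 0.001 (28.0% and 18.6%), and 0 and 0 at q of at most 0.05 (0.6% and 0.3%). Same-lettered MDST8 libraries did not deviate together: the correlation of their deviations ran from -0.1 to 0.108, with 1 of 15 pairs over 0.1, so the letters were not taken as pairs. With a replicate block the members called were 2 in TG1_1, 1 in TG2_2, 3 in TG3_2, 1 in TG3_5 and 4 in TG3_6, as without it. Low counts limit ERBB3 and BTC in MDST8 and NRG1 in LoVo, and ERBB4 in both lines and TGFA and AREG in MDST8 were too low to test. The peak lists have no replicates.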
